A study of Mus musculus with 13 samples.

Results

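The collagen genes were taken as the protein-coding genes whose symbols begin with Col, a number, the letter a and a second number. Of 53465 genes in the table, 45 matched these letters. The rule uses the symbols and no measured value. Col4a3bp also matched, but it codes for a ceramide transfer protein and was left out, so that 44 collagens remained. They comprised 11 fibrillar collagens, 6 basement membrane collagens and 27 collagens of other classes. The latter were 9 fibril-associated collagens with interrupted helices (FACIT), 6 beaded filament, 4 transmembrane, 3 network-forming, 2 multiplexin and 3 anchoring fibril or other collagens.

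Liver RNA came from 6 WT and 7 Nod2-/- male BALB/c mice, with 1 library per mouse. Nod2 codes for an intracellular sensor of bacterial peptidoglycan, and the Nod2-/- mice lack it in the whole body. All mice of both genotypes had received the carcinogen DMBA as newborn pups and were then kept on a high-fat diet, for 30 weeks according to the sample labels, which give cancer as the disease state of every mouse. No untreated or chow-fed mice were sequenced. Among males treated this way, the paper found liver tumors in more of the Nod2-/- than of the WT mice, and more weight gain. Genotype can therefore not be told apart from tumor load or body weight. The genotypes were bred as separate lines, so that genotype and breeding line cannot be told apart, and a library holds all cells of the piece of liver taken. Nod2 had 0 to 4 counts in WT and 1 to 6 in Nod2-/- libraries, too few to check the genotype labels.

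Collagens are secreted matrix proteins built from alpha chains that wind around each other, and the chains of a trimer are often made from different genes. Fibrillar collagens such as type I and type III form the scars of a fibrotic liver and are made mainly by hepatic stellate cells and portal fibroblasts, whereas type IV collagen forms the sheets of basement membranes around vessels, bile ducts and nerves. Type VI collagen forms beaded filaments in the interstitial matrix, FACIT collagens sit on the surface of fibrils, and multiplexins lie at basement membranes.

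The type IV genes lie in pairs that face away from each other around a shared stretch of DNA, and these stretches are shown because the paired genes are compared with each other. In RefSeq's annotation of build GRCm38.p6 the start sites of Col4a1 and Col4a2 on chromosome 8 were 21 bases apart. Those of Col4a4 and Col4a3 on chromosome 1 were 72 apart, taking the start of Col4a3 from GENCODE M21, and those of Col4a6 and Col4a5 on the X chromosome were 1343 apart. The sequence before Col3a1, the major fibrillar chain of the liver besides type I, is shown for contrast. All are written on the plus strand. Capitals mark GGGCGG, known as a GC box. In the Col3a1 sequence they mark TATAAA, the letters of a TATA box, which begin at base 134 of the 250 before the start. Whether they act as one was not tested.
Col4a2 and Col4a1 shared start, chr8:11312805-11312826: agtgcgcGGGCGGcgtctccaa
Col4a4 to Col4a3 interval, chr1:82586850-82586920: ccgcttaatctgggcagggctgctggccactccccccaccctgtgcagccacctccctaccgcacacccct
Col3a1 upstream bases, chr1:45311288-45311537: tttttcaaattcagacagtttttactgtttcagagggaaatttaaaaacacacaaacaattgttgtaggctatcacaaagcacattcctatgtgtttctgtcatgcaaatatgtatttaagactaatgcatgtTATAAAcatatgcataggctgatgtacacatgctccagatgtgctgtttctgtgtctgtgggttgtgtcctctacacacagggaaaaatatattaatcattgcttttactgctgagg

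The 22 bases at the Col4a2 and Col4a1 start belong to the first exons of both genes, so reads there cannot be assigned unless strand was used in counting. The 71 bases between Col4a4 and Col4a3 overlap no GENCODE exon. In the 250 bases before Col3a1, 35.2% of bases were G or C, against 69.0% between Col4a4 and Col4a3. RefSeq promoter windows, from 250 bases before to 50 after a start, were at hand for 35 of the 44 collagens (38 windows). Read on either strand, GGGCGG was in 60.5% of the collagen windows and in 35.7% of all 32851 windows. TATAAA was in 13.2% of collagen and 13.6% of all windows, and CCAAT in 34.2% and 37.4%. The median G and C content of a window was 59.8% for the collagens and 52.7% for all. These matches describe the letters of the windows and nothing beyond them.

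Depth was 14886273 to 20579984 counts per library in WT and 13824780 to 19391431 in Nod2-/- mice. Hepatocyte markers were present in every library, with summed normalized counts of 1238257 to 1791730 in WT and 1330517 to 2906865 in Nod2-/- mice, where normalized means rescaled to a library of 16581214 counts, the average effective size. WT replicate 3 stood apart from the other WT mice in the collagens. It had the highest normalized counts of the WT mice for 17 of the 26 collagens tested, among them the 5 tested basement membrane collagens. It was also the highest WT mouse for 6 of 12 cell type marker lists. The stellate cell markers summed to 5193 in this mouse and to at most 3569 in the other WT mice, against 2805 to 4292 in Nod2-/- mice. The cholangiocyte markers summed to 3576 in it, at most 2054 in the others, and 1778 to 6659 in Nod2-/- mice. In WT replicate 3 each sum came mostly from 1 gene. Reln had 2808 normalized counts in this mouse and at most 1147 in the other WT mice, and Spp1 had 3456 and at most 1832. Not all markers of these lists were highest in this mouse. Among the Nod2-/- mice, replicate 3 was the highest for 10 of the 26. Where leaving out WT replicate 3 changed a call, the values or calls with and without it are given. WT replicate 3 was singled out by these same collagen values, so calls made without it are not independent of that choice.

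Collagen transcripts were a small part of the liver RNA. They made up 0.0992% to 0.137% of counts in WT and 0.114% to 0.146% in Nod2-/- mice. Col18a1, a multiplexin that hepatocytes make and whose end part is released as endostatin, held 68.2% to 80.5% of the collagen counts in WT and 68.5% to 79.0% in Nod2-/- mice. Without it, the share of collagens was 0.0194% to 0.0436% and 0.0239% to 0.0408% of counts. The ranges of the genotypes overlapped on both measures.

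Levels of different genes were compared as normalized counts per kilobase of exon. In WT mice Col18a1 was at 2156 ± 86.9 (SD, n = 6), followed by the FACIT collagen Col14a1 at 136 ± 32.1. The fibrillar chains Col5a3 at 82.0 ± 40.7 and Col27a1 at 71.4 ± 26.9 came next, within their spread of each other, and then Col4a1 at 61.8. Col3a1 was at 49.7 and Col4a2 at 44.9 per kilobase, and Col1a1 and Col1a2, the chains of type I collagen, at 16.9 and 14.9. In Nod2-/- mice Col4a1 was at 97.5 per kilobase, the third level in the order in place of the fifth. Col2a1, Col9a1 and Col19a1, known from cartilage and muscle, had 0 counts in all 13 libraries, a result that allows up to 3 counts per library. In all, 8 of the 44 collagens had at most 3 counts in every mouse.

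Of the 44 collagens, 26 had enough counts to be tested and 18 did not. By edgeR's quasi-likelihood test none of the 26 passed a false discovery rate (FDR) of 5%, with the background over all 13545 tested genes at 1.16%, made up of 0.65% higher and 0.509% lower genes. At an unadjusted p under 0.05, 4 collagens had higher counts in Nod2-/- mice, Col5a2, Col8a1, Col6a6 and Col4a1, against a background of 12.9% of genes, and 0 with lower counts, against 10.2%. By sign alone 16 of the 26 were higher and 10 lower in Nod2-/- mice, and 52.3% of all tested genes were higher. The median log2 fold change was 0.09 over the collagens and 0.02 over all tested genes. In no collagen were the 6 WT and 7 Nod2-/- mice without overlap, which was the case in 1.44% of all tested genes. DESeq2's Wald test placed Col5a2 and Col6a6 past 5% FDR, with a background of 7.26%, and voomWithQualityWeights of limma placed Col6a6 there, with a background of 6.22%.

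**Figure D1:**
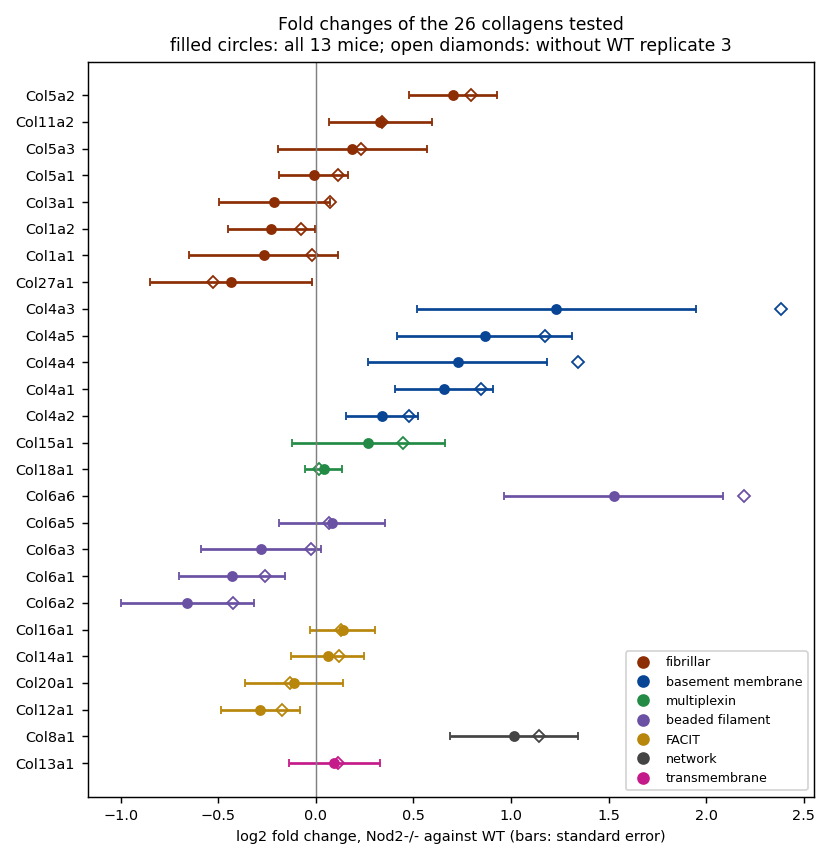
Log2 fold change of each tested collagen in Nod2-/- against WT mice by edgeR (horizontal axis), grouped and colored by class, with filled circles for all 13 mice, bars for the standard error and open diamonds for the fit without WT replicate 3. The 5 basement membrane collagens lie between 0.34 and 1.23, the 8 fibrillar collagens between -0.43 and 0.70, and the diamonds of Col4a3, Col4a4 and Col6a6 lie farthest to the right.

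The classes differed in their signs. Of the 8 fibrillar collagens tested, 3 were higher and 5 lower in Nod2-/- mice (median log2 fold change -0.11). The 5 basement membrane collagens tested were higher, with a median of 0.73. Of the 5 beaded filament collagens 2 were higher and 3 lower (median -0.28), and of the 4 FACIT collagens 2 were higher and 2 lower (median -0.03). The difference between classes was not tested, since their genes share the same mice.

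Col1a1 (chr11:94936224-94953042) and Col1a2 (chr6:4504814-4541544) code for the chains of type I collagen. Col1a1 had 39.5, 104 and 202 normalized counts in the lowest, median and highest WT mouse and 50.1, 75.5 and 178 in those of the Nod2-/- mice. For Col1a2 these values were 121, 169 and 286 in WT and 120, 140 and 267 in Nod2-/- mice. The highest mice were replicate 3 of each genotype for both genes, and the ranges overlapped almost entirely. Fitted log2 fold changes were -0.27 ± 0.38 (standard error) for Col1a1 and -0.23 ± 0.22 for Col1a2, with adjusted p = 0.700 and 0.560 by edgeR. Without WT replicate 3 they were -0.02 and -0.07.

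Col3a1 (chr1:45311538-45349706), which forms type III fibrils together with type I, had 303, 398 and 944 normalized counts in the lowest, median and highest WT mouse. In Nod2-/- mice these were 266, 441 and 633. WT replicate 3 alone lay above every Nod2-/- mouse, and 3 Nod2-/- mice lay below every WT mouse. The log2 fold change was -0.21 ± 0.28 (adjusted p = 0.679, edgeR), and 0.07 ± 0.24 without WT replicate 3, so that its sign rested on this mouse.

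Col5a1 (chr2:27886425-28039514) and Col5a2 (chr1:45374321-45503282) code for chains of type V collagen, which sits in the core of type I fibrils and limits their width. Col5a2 had 52.6, 69.9 and 95.8 normalized counts in the lowest, median and highest WT mouse and 69.4, 100.5 and 182 in Nod2-/- mice. In 5 of 7 Nod2-/- mice it was above every WT mouse. Its group means were 70.7 ± 17.8 (SD, n = 6) and 115 ± 38.3 (SD, n = 7). Its log2 fold change was 0.70 ± 0.22, with adjusted p = 0.0966 by edgeR and 0.0464 by DESeq2. Without WT replicate 3 it was 0.80 (adjusted p = 0.0507, edgeR). Col5a1 had 80.0, 94.8 and 147 normalized counts in the lowest, median and highest WT mouse and 69.8, 96.7 and 130 in Nod2-/- mice. The ranges overlapped, and its log2 fold change was -0.01 ± 0.18 (adjusted p = 0.978, edgeR). The other type V chain, Col5a3, and the type XI chain Col11a2 were at 0.19 and 0.33 on the log2 scale (edgeR adjusted p = 0.802 and 0.463).

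Col27a1 (chr4:63214004-63334991), a fibrillar chain known from cartilage, had 502, 863 and 1352 normalized counts in the lowest, median and highest WT mouse. In Nod2-/- mice these were 248, 504 and 1764. The Nod2-/- mice included both the highest mouse, replicate 5, and 3 mice below every WT mouse. The log2 fold change was -0.43 ± 0.41 (adjusted p = 0.545, edgeR), and it was -0.87 without Nod2-/- replicate 5 (adjusted p = 0.149, edgeR).

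**Figure D2:**
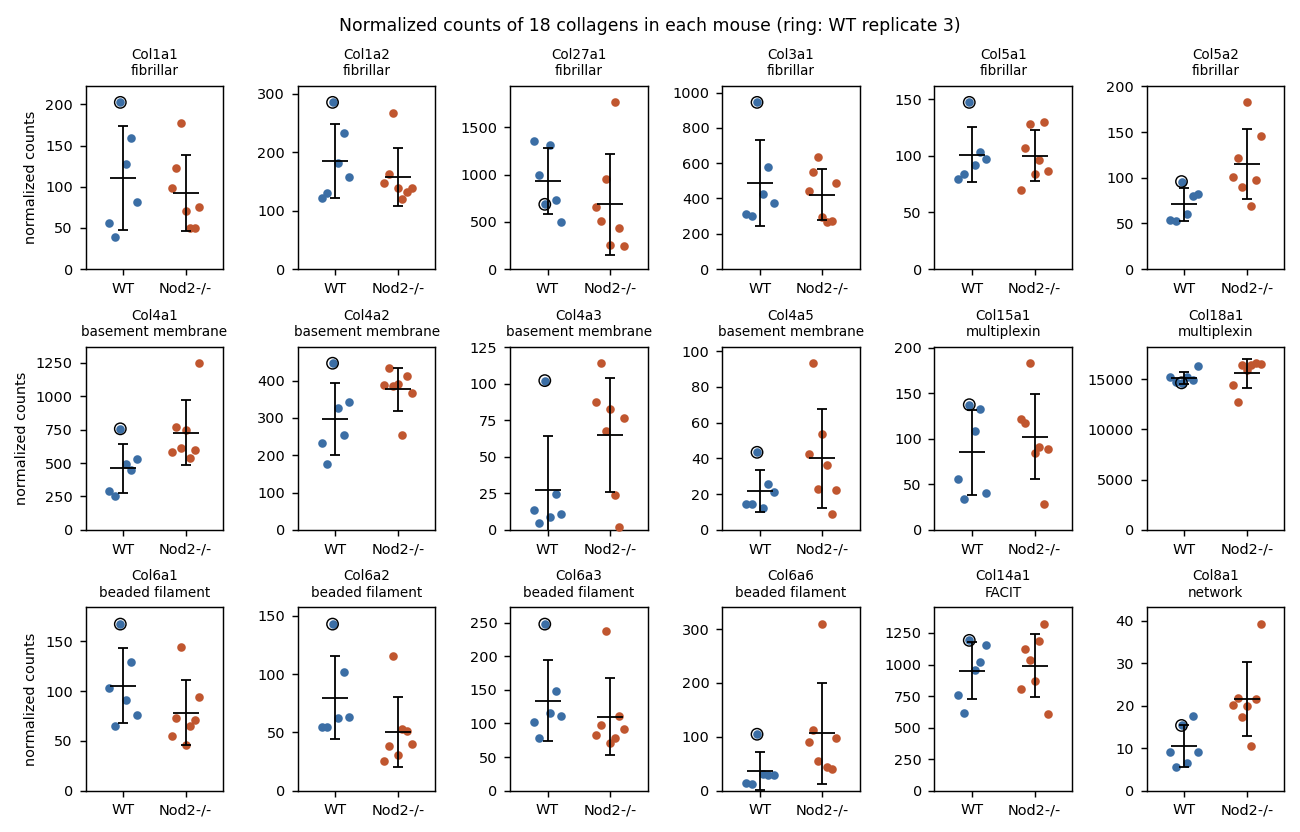
Normalized counts of 18 collagens in each mouse (vertical axes from 0, each with its own scale), WT in blue and Nod2-/- in orange, with the mean and SD in black and a ring around WT replicate 3. Col5a2 and Col8a1 have 5 of 7 Nod2-/- mice above every WT mouse, whereas Col4a1 and Col6a6 have 2.

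Col4a1 (chr8:11198423-11312826) and Col4a2 (chr8:11312805-11449287) code for the chains of the common type IV collagen of vessel walls. Col4a1 had 255, 468 and 756 normalized counts in the lowest, median and highest WT mouse and 540, 613 and 1246 in Nod2-/- mice. WT replicate 3 was the highest WT mouse, and the next had 531, below the lowest Nod2-/- mouse. The means were 461 ± 182 (SD, n = 6) and 728 ± 244 (SD, n = 7), which edgeR fitted as a log2 fold change of 0.66 ± 0.25 with adjusted p = 0.142. Without WT replicate 3 the log2 fold change was 0.84 ± 0.24, past the threshold (adjusted p = 0.0434, edgeR). Nod2-/- replicate 7 was the highest mouse, and without it the log2 fold change was 0.48 (adjusted p = 0.273, edgeR). This mouse also had 15240 summed normalized counts of 6 neutrophil markers, against a median of 277 in Nod2-/- mice and at most 99.1 in WT mice. The part of neutrophils in the Col4a1 value was not tested.

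For Col4a2 the lowest, median and highest values were 178, 290 and 446 in WT and 255, 388 and 434 in Nod2-/- mice. No Nod2-/- mouse lay above WT replicate 3, and 6 of 7 lay above the other WT mice. The log2 fold change was 0.34 ± 0.18 (adjusted p = 0.278, edgeR), or 0.48 without WT replicate 3 (adjusted p = 0.0799, edgeR). The adjusted p thus missed the threshold with and without this mouse.

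Col4a3 (chr1:82586921-82722059), Col4a4 (chr1:82448423-82586849) and Col4a5 (chrX:141475385-141689234) code for the chains of a second type IV trimer, best known from the filtration barrier of the kidney. Col4a3 had 4.39, 11.98 and 102 normalized counts in the lowest, median and highest WT mouse and 2.28, 76.4 and 114 in Nod2-/- mice. The WT value of 102 was that of replicate 3, and the other WT mice had at most 24.3. Nod2-/- replicate 6 had the lowest value of all 13 mice, and 5 of 7 Nod2-/- mice lay above the WT mice other than replicate 3. The log2 fold change was 1.23 ± 0.72 (adjusted p = 0.312, edgeR), and 2.38 ± 0.64 without WT replicate 3, past the threshold (adjusted p = 0.0394, edgeR).

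Col4a4 ranged from 7.18 to 50.6 normalized counts in WT and from 7.96 to 52.9 in Nod2-/- mice, with medians of 12.5 and 33.3. The fitted log2 fold change was 0.73 ± 0.46 (adjusted p = 0.353, edgeR), or 1.35 ± 0.38 without WT replicate 3, again past the threshold (adjusted p = 0.0460, edgeR). The lowest, median and highest values of Col4a5 were 12.1, 17.8 and 43.4 in WT and 9.10, 36.0 and 93.2 in Nod2-/- mice. The groups overlapped, with 2 Nod2-/- mice above WT replicate 3. On the log2 scale the fold change was 0.86 ± 0.45 (adjusted p = 0.262, edgeR), or 1.17 without that mouse (adjusted p = 0.116, edgeR). Col4a6, the last type IV chain, had at most 1 count in a library.

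Markers of lung epithelium, a tissue that also makes these chains, were present in the libraries, with summed normalized counts of 224 to 3248 in WT and 45.5 to 529 in Nod2-/- mice. Of the 6 markers 5 were tested, and 0 passed 5% FDR, 5 being lower at an unadjusted p under 0.05 by edgeR, against the background of 10.2%. Without WT replicate 3, Sftpc, Sftpa1 and Sftpb, which code for surfactant proteins, were past 5% FDR with lower counts in Nod2-/- mice (log2 fold changes -3.14, -2.23 and -2.91, adjusted p = 0.0460, 0.0384 and 0.0459, edgeR), with 3.37% of all genes lower in that fit. The sum was highest in WT replicate 4, at 3248, and it was 915 in WT replicate 3. Col4a3 had 8.77 normalized counts in WT replicate 4, the mouse with the most lung markers. The part of lung tissue in the collagen values was not tested.

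Without WT replicate 3, edgeR placed 4 collagens past 5% FDR, Col4a1, Col4a3, Col4a4 and Col6a6, all with higher counts in Nod2-/- mice. The background was 8.49% of 13611 genes, or 5.12% counting higher genes. Then 8 of 26 collagens were higher and 0 lower at an unadjusted p under 0.05, against 15.5% and 13% of all genes. Without this mouse 2 collagens, Col4a1 and Col6a6, had no overlap between the genotypes, as had 4.45% of all genes tested. The median log2 fold change of the fibrillar collagens was then 0.09 and that of the basement membrane collagens 1.17. WT replicate 3 was the highest WT mouse for the 5 tested basement membrane collagens and for Col6a6. Leaving it out therefore raises their fold changes through the choice of mouse.

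**Figure D3:**
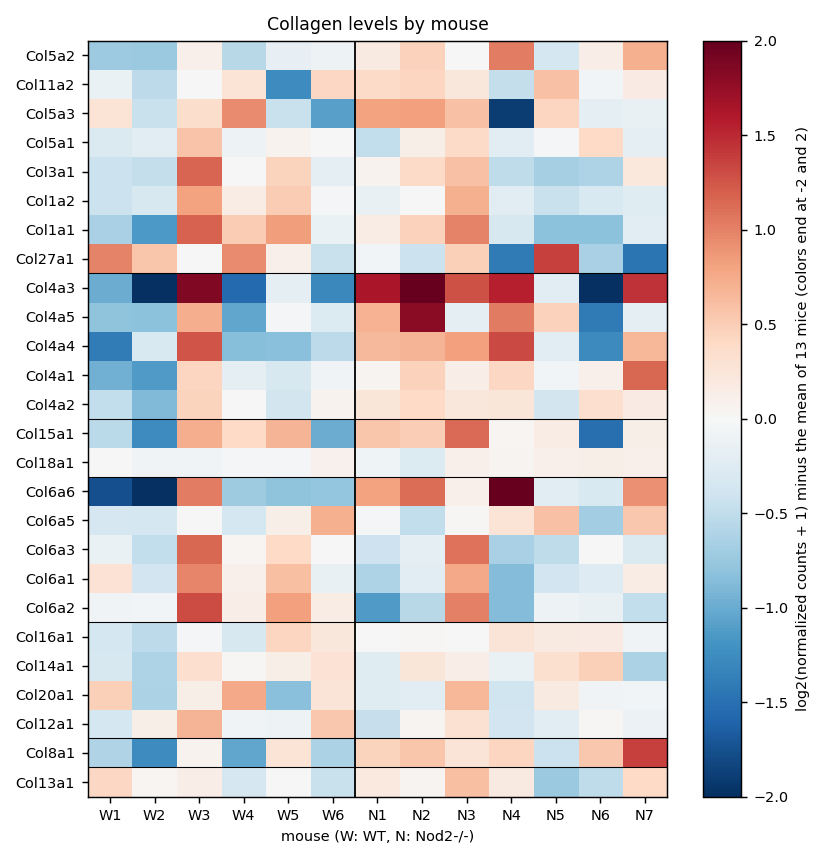
Level of each tested collagen (rows, grouped by class) in each mouse (columns), as log2(normalized counts + 1) minus the mean of the 13 mice, with colors ending at -2 and 2. The WT replicate 3 column is high for most rows, and the rows of Col4a3, Col4a4, Col4a5 and Col6a6 are high in several Nod2-/- mice and low in the remaining WT mice.

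Col6a1 (chr10:76708792-76726168), Col6a2 (chr10:76595762-76623630) and Col6a3 (chr1:90765923-90843971) code for the chains of the common type VI trimer. Col6a1 had 64.7, 97.3 and 167 normalized counts in the lowest, median and highest WT mouse and 45.9, 70.5 and 144 in Nod2-/- mice. Col6a2 had 54.3, 62.8 and 143 in WT and 25.4, 40.2 and 115 in Nod2-/- mice. In 6 of 7 Nod2-/- mice Col6a2 was below every WT mouse, replicate 3 being the exception. Its log2 fold change was -0.66 ± 0.34 (adjusted p = 0.260, edgeR). It was -0.43 without WT replicate 3 and -1.001 without Nod2-/- replicate 3, with adjusted p of 0.417 and 0.0663 by edgeR. For Col6a1 the log2 fold change was -0.43 ± 0.27 (adjusted p = 0.352, edgeR), or -0.26 without WT replicate 3.

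Col6a3 had 78.9, 113 and 248 normalized counts in the lowest, median and highest WT mouse and 70.8, 91.1 and 237 in Nod2-/- mice. The highest mouse was replicate 3 in each genotype, and the ranges overlapped. The fit gave a log2 fold change of -0.28 ± 0.31 (edgeR adjusted p = 0.603), or -0.03 without WT replicate 3.

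Col6a6 (chr9:105687809-105828160), a chain that can take the place of Col6a3 in the trimer, had 12.1, 29.1 and 105 normalized counts in the lowest, median and highest WT mouse. In Nod2-/- mice these were 41.0, 89.9 and 309. WT replicate 3 had the value of 105 and the other WT mice had at most 30.7, below all 7 Nod2-/- mice. The log2 fold change was 1.53 ± 0.56 (adjusted p = 0.131, edgeR), or 2.19 ± 0.52 without WT replicate 3 (adjusted p = 0.0296, edgeR). With DESeq2 and voomWithQualityWeights, over all mice, it was 1.53 and 1.70, with adjusted p = 0.0465 and 0.0421. Nod2-/- replicate 4 was the highest mouse, and without it the log2 fold change was 0.98 (adjusted p = 0.284, edgeR). The neighbouring gene Col6a5 had a log2 fold change of 0.08 (edgeR adjusted p = 0.877).

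Among the remaining classes, Col8a1 (chr16:57624258-57754737), a short chain of the networks under vascular endothelium, had 5.48, 9.12 and 17.7 normalized counts in the lowest, median and highest WT mouse. In Nod2-/- mice these were 10.5, 20.1 and 39.2, and 5 of 7 mice lay above every WT mouse. Its log2 fold change was 1.01 ± 0.33 (adjusted p = 0.0992, edgeR), 1.14 without WT replicate 3 (adjusted p = 0.0575, edgeR) and 0.80 without Nod2-/- replicate 7, the highest mouse.

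Col18a1 (chr10:77052178-77166548) had 14617, 15030.4 and 16282 normalized counts in the lowest, median and highest WT mouse and 12708, 16374 and 16567 in Nod2-/- mice. The genotypes overlapped, with 2 Nod2-/- mice below every WT mouse and 4 above. A log2 fold change of 0.04 ± 0.10 was fitted (adjusted p = 0.830, edgeR). The other multiplexin, Col15a1 (chr4:47208161-47313167), found in vessel and nerve basement membranes, had 34.0, 82.5 and 137 in WT and 28.4, 91.4 and 183 in Nod2-/- mice. Its log2 fold change was 0.27 ± 0.39 (adjusted p = 0.708, edgeR), within the spread of the mice.

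Col14a1 (chr15:55307750-55520803), which binds to the surface of type I fibrils, had 616, 991 and 1191 normalized counts in the lowest, median and highest WT mouse and 607, 1037 and 1320 in Nod2-/- mice. The ranges overlapped, and the log2 fold change was 0.06 ± 0.18 (adjusted p = 0.872, edgeR). The FACIT collagens Col12a1, Col16a1 and Col20a1 and the transmembrane collagen Col13a1 lay between -0.28 and 0.14 on the log2 scale, with adjusted p from 0.407 to 0.837 by edgeR.

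Of the 18 collagens with too few counts for edgeR, 6 reached 10 counts in a mouse, Col7a1 of anchoring fibrils, Col8a2, Col17a1 of hemidesmosomes, Col22a1, Col23a1 and Col25a1. Their normalized counts were compared by 2-sided exact permutation tests, which go through 1716 splits of the mice, and the 6 unadjusted p were between 0.0664 and 0.700. The lowest was that of Col22a1, a FACIT collagen of muscle and tendon junctions, at 1.30 ± 0.95 (SD, n = 6) in WT and 6.81 ± 7.84 (SD, n = 7) in Nod2-/- mice. No WT mouse had more than 3 counts of it, and Nod2-/- replicate 7 had 23.

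Ratios between chains were taken within each library, which needs no scaling between mice, as log2 ratios of counts with 0.5 added to each. Since genes differ in length, a ratio was compared between mice and not read as a stoichiometry. The 6 ratios were compared by 2-sided exact permutation tests, whose smallest possible p with 6 and 7 mice is 0.000583. The log2 ratio of Col1a1 to Col1a2 was -0.89 ± 0.48 (SD, n = 6) in WT and -0.86 ± 0.37 (SD, n = 7) in Nod2-/- mice, a difference of 0.02 (exact permutation p = 0.917). That of Col3a1 to Col1a1 also differed by 0.02 (exact permutation p = 0.928). The relation between type I and type III transcripts was thus not distinguishable between the genotypes.

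The log2 ratio of Col5a1 to Col5a2 was 0.24, 0.59 and 0.68 in the lowest, median and highest WT mouse and -1.12, -0.19 and 0.52 in Nod2-/- mice. In 4 of 7 Nod2-/- mice it was below every WT mouse. The means were 0.52 ± 0.17 (SD, n = 6) and -0.17 ± 0.66 (SD, n = 7), a ratio 1.61-fold lower in Nod2-/- mice (exact permutation p = 0.0355, or 0.117 with Benjamini-Hochberg adjustment for 6 ratios). The WT mice lay close together and the Nod2-/- mice were spread over more than a unit of the log2 scale.

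The log2 ratio of the fibrillar Col1a1 to the basement membrane Col4a1 was -2.71, -2.14 and -1.49 in the lowest, median and highest WT mouse. In Nod2-/- mice these were -4.04, -3.38 and -1.78, and 4 of 7 mice lay below every WT mouse. The means were -2.17 ± 0.48 (SD, n = 6) and -3.06 ± 0.76 (SD, n = 7), a ratio 1.84-fold lower in Nod2-/- mice (exact permutation p = 0.0390, or 0.117 adjusted over the 6 ratios). The log2 ratios of Col4a1 to Col4a2 and of Col6a1 to Col6a2 were higher by 0.31 and 0.27 in Nod2-/- mice (exact permutation p = 0.101 and 0.166). After adjustment 0 of the 6 ratios passed 5%.

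**Figure D4:**
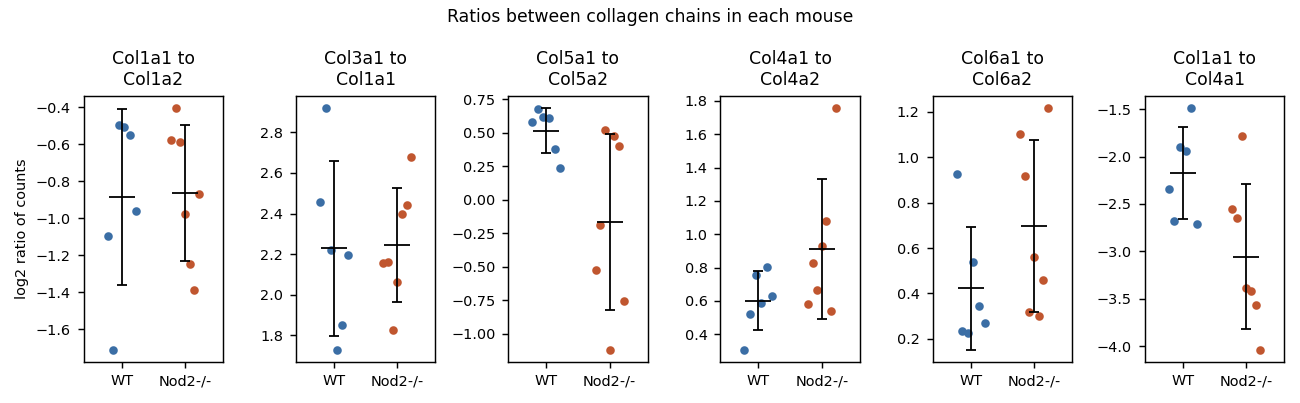
Log2 ratio of the counts of 2 collagen chains in each mouse, WT in blue and Nod2-/- in orange, with the mean and SD in black (vertical axes differ between panels). The ratios of Col5a1 to Col5a2 and of Col1a1 to Col4a1 have 4 of 7 Nod2-/- mice below every WT mouse, and those of Col1a1 to Col1a2 and Col3a1 to Col1a1 overlap.

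Across the 13 mice the levels of partner chains were correlated as log2 normalized counts, in 8 pairs, of which the 2 with Col4a3 were chosen after their values were seen. The points share the scaling of each library. Col1a1 and Col1a2 had Pearson's r = 0.92 and Spearman's rho = 0.96 (permutation p = 1e-05 for each, the smallest that 100000 permutations can give, and 4e-05 and 8e-05 adjusted over the 8 pairs). Without the 2 mice farthest from the median of the first gene, here WT replicate 3 and Nod2-/- replicate 3, r was 0.88. For Col1a1 and Col3a1 r was 0.91 and rho 0.90 (permutation p = 1e-05 and 7e-05, adjusted 4e-05 and 0.000187), and for Col6a1 and Col6a2 they were 0.88 and 0.77 (permutation p = 0.00016 and 0.00316, adjusted 0.000427 and 0.00421). Without the 2 farthest mice r was 0.87 and 0.76 for these pairs. In each of these 3 pairs r within a genotype was 0.84 or more. Type VI chains were not compared with those of type I or type III.

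Col1a1 and Col4a1 had r = 0.37 and rho = 0.32 over the 13 mice (permutation p = 0.219 and 0.282, adjusted 0.250 and 0.322). The r was 0.88 over the 6 WT mice and 0.06 over the 7 Nod2-/- mice, and 0.31 over all without the 2 farthest mice. For Col5a1 and Col5a2 r was 0.07 and rho 0.10 (permutation p = 0.809 and 0.749, each the same after adjustment), with r = 0.88 over the WT and -0.36 over the Nod2-/- mice. It was 0.12 without the 2 farthest, WT replicate 3 and Nod2-/- replicate 1. The difference between the genotypes in these correlations was not tested.

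The type IV pairs were related too. For Col4a1 and Col4a2, which share their start region, r was 0.81 and rho 0.82 (permutation p = 0.00044 and 0.00098, adjusted 0.000752 and 0.00196). Without the 2 farthest mice, WT replicate 2 and Nod2-/- replicate 7, r was 0.86, though it was 0.27 over the Nod2-/- mice. Col4a3 was related to Col4a4, which starts 72 bases away, with r = 0.85 and rho = 0.78, and to Col4a5 on another chromosome with r = 0.84 and rho = 0.92. With the 2 farthest mice left out, WT replicate 2 and Nod2-/- replicate 6, r was 0.91 and 0.77. WT replicate 3 was kept in these type IV values. No p is given for the pairs with Col4a3, which were chosen after their values were seen.

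**Figure D5:**
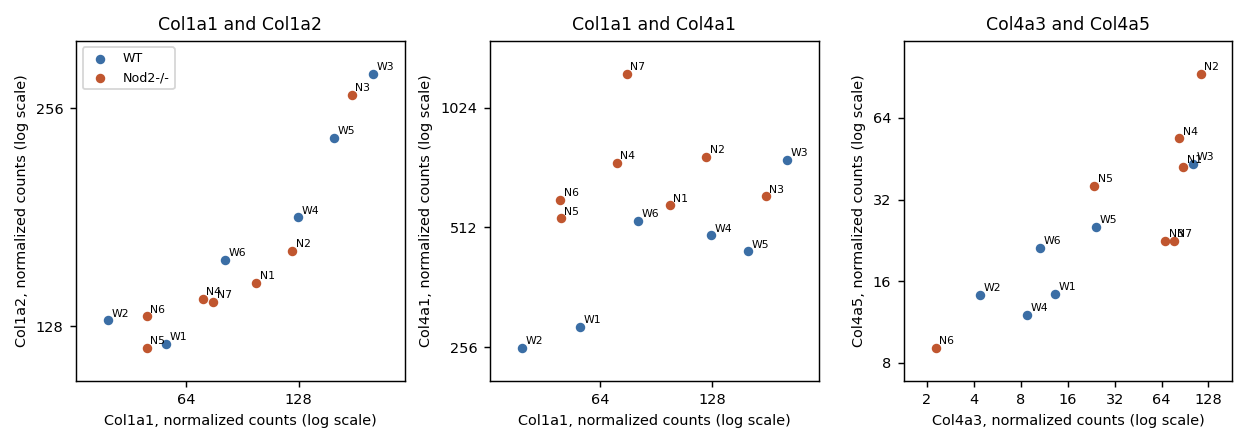
Normalized counts of 2 collagens against each other in the 13 mice (both axes on a log scale), WT in blue and Nod2-/- in orange, each point named by genotype letter and replicate. Col1a1 and Col1a2 lie along a single line (r = 0.92), 4 of 7 Nod2-/- mice have more Col4a1 at a given Col1a1 than any WT mouse, as read from their ratio, and WT replicate 3 lies among the Nod2-/- mice for Col4a3 and Col4a5.

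In a bulk liver sample, fewer cells of a type and less RNA per cell cannot be told apart. Markers of the cells that make fibrillar collagens were therefore read beside the collagens. Of 8 stellate cell markers 3 were higher and 5 lower by sign in Nod2-/- mice (median log2 fold change -0.09), and 7 did not pass 5% FDR. The exception Rgs5, a pericyte regulator of G protein signaling, rose (log2 fold change 0.55 ± 0.13, adjusted p = 0.0490, edgeR). Rgs5 was past the threshold in 4 of 13 fits that each left out 1 mouse. Lrat, which esterifies vitamin A in stellate cells, had a log2 fold change of -0.30 (edgeR adjusted p = 0.326). Of the myofibroblast markers 4 of 5 were tested and 0 passed, with Acta2, smooth muscle actin, at 0.48 (adjusted p = 0.626, edgeR) and summed normalized counts of 93.2 to 427 in WT and 104 to 350 in Nod2-/- mice.

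Portal fibroblast markers had 3 of 6 genes tested and 0 past 5% FDR, with Thy1 at a log2 fold change of 0.96 and Entpd2 at 0.996 (adjusted p = 0.0846 and 0.151, edgeR). Entpd2 was past the threshold without WT replicate 3 (log2 fold change 1.34, adjusted p = 0.0428, edgeR). The summed normalized counts of the portal fibroblast markers were 62.5 to 191 in WT, highest in replicate 3, and 88.8 to 332 in Nod2-/- mice, highest in replicate 4. These were also the highest mice of each genotype for Col6a6. Entpd2 alone held 136 and 287 of these highest sums, whereas Thy1 was highest in WT replicate 4 and Nod2-/- replicate 7. The cholangiocyte markers had 5 of 6 tested and Sox9 past the threshold (log2 fold change 1.29 ± 0.25, adjusted p = 0.0324, edgeR, and past it in 6 of 13 fits without 1 mouse). By sign 3 of the 5 tested were higher and 2 lower. The lower ones were the keratin genes Krt19 and Krt7 (log2 fold changes -0.40 and -0.05, adjusted p = 0.587 and 0.943, edgeR). Spp1, or osteopontin, was at 1.30 (adjusted p = 0.109, edgeR), and without WT replicate 3 at 1.76 and past the threshold (adjusted p = 0.0243, edgeR). The part of these cells in the collagen values was not tested. The 6 sinusoidal endothelium markers (2874 to 3991 against 3069 to 4040 summed), 5 Kupffer cell markers (1544 to 2613 against 1856 to 5646) and 6 hepatocyte markers had 0 genes past 5% FDR. In the fit without WT replicate 3, the endothelial scavenger receptor Stab1 was past it, at 0.50 on the log2 scale against 0.40 over all mice (adjusted p = 0.0257 and 0.104, edgeR). In that fit 5.12% of all genes were past it with higher counts. Of the mesothelium, neutrophil and adipocyte markers, 2 of 4, 2 of 6 and 1 of 4 were tested and 0 passed. At an unadjusted p under 0.05 by edgeR, 2 of 2 tested neutrophil and 2 of 5 Kupffer cell markers were higher and 0 lower. The background was 12.9% higher genes. The neutrophil markers summed to 43.9 to 99.1 (median 64.2) in WT and 62.4 to 15240 (median 277) in Nod2-/- mice. The paper found more neutrophils in Nod2-/- livers by flow cytometry. Of the skeletal muscle markers, Acta1 and Myh4 had 0 counts in every mouse and 0 were tested.

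The genes that act on collagens were also read from the same test. Of 18 enzymes and chaperones that modify and fold the chains in the endoplasmic reticulum 16 were tested and 0 passed 5% FDR, 6 being higher and 10 lower by sign. The lowest p was that of Mia3, which helps load procollagen for export, with 2592 ± 234 (SD, n = 6) normalized counts in WT and 2131 ± 144 (SD, n = 7) in Nod2-/- mice. That was a log2 fold change of -0.28 ± 0.08 (edgeR adjusted p = 0.0723). The prolyl hydroxylase P3h1 and the galactosyltransferase Colgalt1 were at 0.28 and 0.19 on the log2 scale (edgeR adjusted p = 0.180 and 0.210).

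Of 12 genes of propeptide processing and cross-linking, 8 were tested and 0 passed, 6 being higher by sign, as were 52.3% of all tested genes. Bmp1, the protease that cuts the end propeptide from procollagens, had a log2 fold change of 0.42 ± 0.12 (edgeR adjusted p = 0.0807). Lox, which starts cross-linking, was below the filter. Of 10 collagen receptors 8 were tested and 0 passed, with Lair1 and Ddr1 at 0.87 and 1.16 on the log2 scale (edgeR adjusted p = 0.240 and 0.256). The integrin chain Itga2 was at 0.99 over all mice (adjusted p = 0.466, edgeR), with 55.1 normalized counts in WT replicate 3 and at most 54.8 in Nod2-/- mice. Without WT replicate 3 Itga2 was past the threshold (log2 fold change 2.69, adjusted p = 0.0369, edgeR). In that fit 5.12% of all genes were past it with higher counts. Of 10 matrix proteins that bind fibrils, 10 were tested and 0 passed, with Fbln2 at 1.25 and Postn at 0.52 (adjusted p = 0.107 and 0.197, edgeR).

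Mmp14, a membrane-bound protease that cuts fibrillar collagens and activates Mmp2, rose in Nod2-/- mice and was the single gene past 5% FDR among 6 tested of 9 degradation genes. It had 173, 223 and 342 normalized counts in the lowest, median and highest WT mouse and 397, 481 and 1314 in Nod2-/- mice, without overlap between the groups. For Mmp14 the log2 fold change was 1.51 ± 0.29 (adjusted p = 0.0275, edgeR), and it was past the threshold in 8 of 13 fits that each left out 1 mouse, with adjusted p up to 0.0813. The fits in which it missed the threshold were those without WT replicates 1, 2, 4 and 5 and Nod2-/- replicate 7. Mmp14 lies on chromosome 14, as do Bmp1 and Stab1. For these genes, as for every gene here, genotype and breeding line cannot be told apart. Mmp13, Mmp2 and Timp2 were at 0.64, -0.43 and -0.14 on the log2 scale, with an adjusted p of 0.428 or more by edgeR. Mmp8, Mmp9 and Timp1 were below the filter and not tested. Their median normalized counts were 2.20, 1.64 and 4.54 in WT and 5.14, 7.91 and 9.80 in Nod2-/- mice. Nod2-/- replicate 7 had 200 of Mmp8 and 225 of Mmp9, and WT replicate 3 had 20.8 of Timp1. The paper reported Mmp8 and Mmp9 as increased in Nod2-/- livers.

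Of 12 fibrogenic ligands and receptors 11 were tested, 11 were higher by sign and 0 passed 5% FDR. By sign 52.3% of all tested genes were higher. At an unadjusted p under 0.05, 3 of the 11 were higher and 0 lower by edgeR, against 12.9% higher genes overall in the test. The genes share the same mice, and the list was not tested as a whole. Tgfb1, the main inducer of collagen genes in stellate cells, had 53.7, 71.8 and 81.1 normalized counts in the lowest, median and highest WT mouse and 70.4, 103 and 135 in Nod2-/- mice. Its log2 fold change was 0.52 ± 0.16 (adjusted p = 0.0889, edgeR). Pdgfd and Pdgfa, ligands of the receptors on stellate cells, were at 0.43 and 0.44 (adjusted p = 0.196 and 0.213, edgeR), and Pdgfrb at 0.13 (adjusted p = 0.749, edgeR). The receptor Tgfbr2 was at 0.67 over all mice (adjusted p = 0.377, edgeR). Without WT replicate 3 it was past the threshold (log2 fold change 1.28, adjusted p = 0.0390, edgeR). In that fit 5.12% of all genes were past it with higher counts.

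The 44 collagens lie on 15 chromosomes, with 0 on chromosome 14. None was within 10 Mb of Nod2, which lies on chromosome 8, and the nearest, Col4a1 and Col4a2, lay 77.3 Mb away.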

How the data were processed

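Reads of 13 liver libraries were, by the authors, trimmed (Trimmomatic 0.33), mapped to GRCm38 (TopHat2 2.1.1) and deposited as whole-number counts per gene, without normalization. The counting program and its use of strand are not given in the sources used here, so reads in overlapping genes are uncertain. The labels name stranded libraries of polyA RNA, whereas the paper speaks of total RNA. Symbols and exon lengths came from GENCODE M21 (the authors used M16), in which 53274 of 53465 genes were found.

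On the 13545 genes kept by filterByExpr, edgeR 4.0.16 (R 4.3.3) was run (TMM, glmQLFit, glmQLFTest, 2-sided, all mice, no covariate), adjusted by Benjamini and Hochberg at 0.05, a fit tested on simulated data. Libraries of a genotype differed beyond sampling noise in all 36 pairs. Alternatives were DESeq2 1.42.0, voomWithQualityWeights of limma 3.58.1, RLE scaling, other filters, a robust fit, a replicate block, other pseudocounts and leaving out each mouse.

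Values by mouse were given for 16 listed collagens and any at an unadjusted p under 0.05. Other genes were named by passing 5% FDR or among the 4 lowest p of a list. The exceptions Lox, Pdgfrb, Itga2, Tgfbr2, Krt7, Mmp8, Mmp9 and Timp1 were named after their values were seen. Members and lists were chosen with earlier results of these data known.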

Additional observations from a re-analysis of the deposited data

Results flagged for a closer look

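In 48 groups of mice, counting each of 24 measures in each genotype, the highest or lowest mouse was examined for a gap to its neighbour beyond Dixon's 95% limit. Chance flags about 1 in 20 groups, and 11 gaps were found. Of the WT mice, replicate 3 stood out with 147 normalized counts of Col5a1, 102 of Col4a3 and 105 of Col6a6, against next values of 104, 24.3 and 30.7. WT replicate 6 had 16282 of Col18a1, with the next WT mouse at 15190. Of the Nod2-/- mice, replicate 3 stood out with 267 of Col1a2, 115 of Col6a2 and 237 of Col6a3, against next values of 163, 52.7 and 112. Nod2-/- replicate 7 had 1246 of Col4a1 and 39.2 of Col8a1, against 771 and 21.8. Nod2-/- replicate 4 had 309 of Col6a6, against 112, and replicate 5 the lowest Col4a2 at 255, against 368.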

How the results depend on the processing

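With DESeq2, on its own genes or on those of the edgeR filter (added after seeing the data), 2 collagens were past 5% FDR, among 1154 and 1153 genes, and with voomWithQualityWeights 1, among 843 genes, against 0 collagens and 157 genes with edgeR. At an unadjusted p under 0.05, counts chosen after seeing the data, there were 7 higher collagens of 26 with voomWithQualityWeights (14.6% of all genes). There were 8 higher and 1 lower of 41 without a filter (8.59% and 6.64%), and 6 higher and 1 lower of 41 with DESeq2 (7.47% and 6.41%). The replicate numbers did not pair the mice, since deviations of same-numbered mice correlated between -0.30 and 0.30 and no mouse correlated best with its own number. With a replicate block 35 genes and 0 collagens were past 5% FDR, 2 collagens were lower at an unadjusted p under 0.05 (8.61% of all genes), and the log2 fold change of Col5a1 turned to 0.021. With voomWithQualityWeights Col5a1 turned to 0.035 and Col3a1 to 0.016. The cause of these shifts was not tested.

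Leaving out each mouse gave 0 to 4 collagens and 41 to 1156 genes past 5% FDR, the highest without WT replicate 3. The lower ends were 41, 42, 45, 52, 54, 67 and 81 genes without WT replicates 1, 4, 2 and 5 and Nod2-/- replicates 7, 4 and 6. It gave 3 to 8 higher and 0 to 3 lower collagens at an unadjusted p under 0.05, the most without WT replicate 3 (15.5% of all genes higher) and without Nod2-/- replicate 3 (10.9% lower). The log2 fold changes ran from -0.039 to 0.15 for Col14a1, from -0.34 to 0.071 for Col3a1 and from -0.082 to 0.11 for Col5a1. The log2 ratio differed by -0.14 to 0.11 for Col1a1 to Col1a2, -0.081 to 0.16 for Col3a1 to Col1a1, -0.80 to -0.53 for Col5a1 to Col5a2, 0.17 to 0.37 for Col4a1 to Col4a2, 0.19 to 0.37 for Col6a1 to Col6a2 and -1.09 to -0.72 for Col1a1 to Col4a1. Of 375 refitted fold changes of 18 collagens, 357 kept their direction and their side of the threshold, 10 reversed and 8 newly passed. For collagens below the filter, low depth and absent transcripts cannot be told apart.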
